A study of Mus musculus with 18 samples.

Results

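The levels of 8 genes that set how fibrin clots are dissolved and how clotting is started and held back were followed in whole mouse jejunum: Plat, Plau, Plaur, Serpine2, F3, Thbd, Procr and Tfpi. These 8 genes, of 54532 in the count table, come from a list of plasminogen activators, inhibitors and coagulation control genes and were matched by symbol. The list was taken up because Plat was higher in FLASH, so it was selected on its CPM in these libraries, and its values in comparisons with FLASH are given as a description, without a test. The other 7 genes came with it by function, but FLASH is the condition behind the choice, and nothing is read from how many of them passed there.

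The animals of all 3 groups were C57BL/6 mice 8 to 12 weeks old, and no other allele or agent is named for any group. The CONV group (5 libraries, numbered 2, 3, 5, 6 and 7) had a single 15 Gy dose to the whole abdomen at a conventional dose rate. The FLASH group (7 libraries, numbered 1, 2, 4, 5, 6, 7 and 9) had the same dose at an ultra-high dose rate. In both, the jejunum was taken 16 h after irradiation. The control group (6 libraries, numbered 1 to 6) was left untreated. The labels do not state that each library is a separate mouse, so the spread behind each p-value is that between libraries and may be partly technical.

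Plasmin is the protease that cuts fibrin, and it is made from plasminogen by either of a pair of activators. Tissue plasminogen activator (Plat) works best on fibrin and is known for its release from vessel walls and its place in the nervous system. Urokinase (Plau) works mainly at cell surfaces, where its receptor (Plaur) holds it. Clotting starts when tissue factor (F3), a membrane protein of cells outside the vessel lumen, meets clotting factors of the plasma. Endothelium holds thrombin back with thrombomodulin (Thbd) and the endothelial protein C receptor (Procr), which together switch on protein C, and with tissue factor pathway inhibitor (Tfpi).

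Library totals were 24342285 to 27765544 estimated counts in control, 19936095 to 26990095 in CONV and 23079695 to 30196611 in FLASH. All 10 enterocyte markers passed the filter on low counts. In control they summed to 18540 to 41950 CPM (the count of a gene relative to the scaled total of its library). The sums were 55290 to 102100 CPM in CONV and 57550 to 100400 CPM in FLASH, all above every control. The 10 T and B lymphocyte markers ran the other way, at 929 to 2915 CPM in control, 185 to 517 CPM in CONV and 159 to 521 CPM in FLASH. The part of these shifts in the differences from control was not tested. In whole tissue, fewer cells of a type and less RNA per cell cannot be told apart. All 8 genes passed the filter in all comparisons, and none overlaps another annotated gene in the mm10 annotation. The lowest estimated count of any of them in a library was 47, for Procr in FLASH 4, where counting error alone spans 34.5 to 62.5 (exact Poisson 95% interval).

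**Figure D1:**
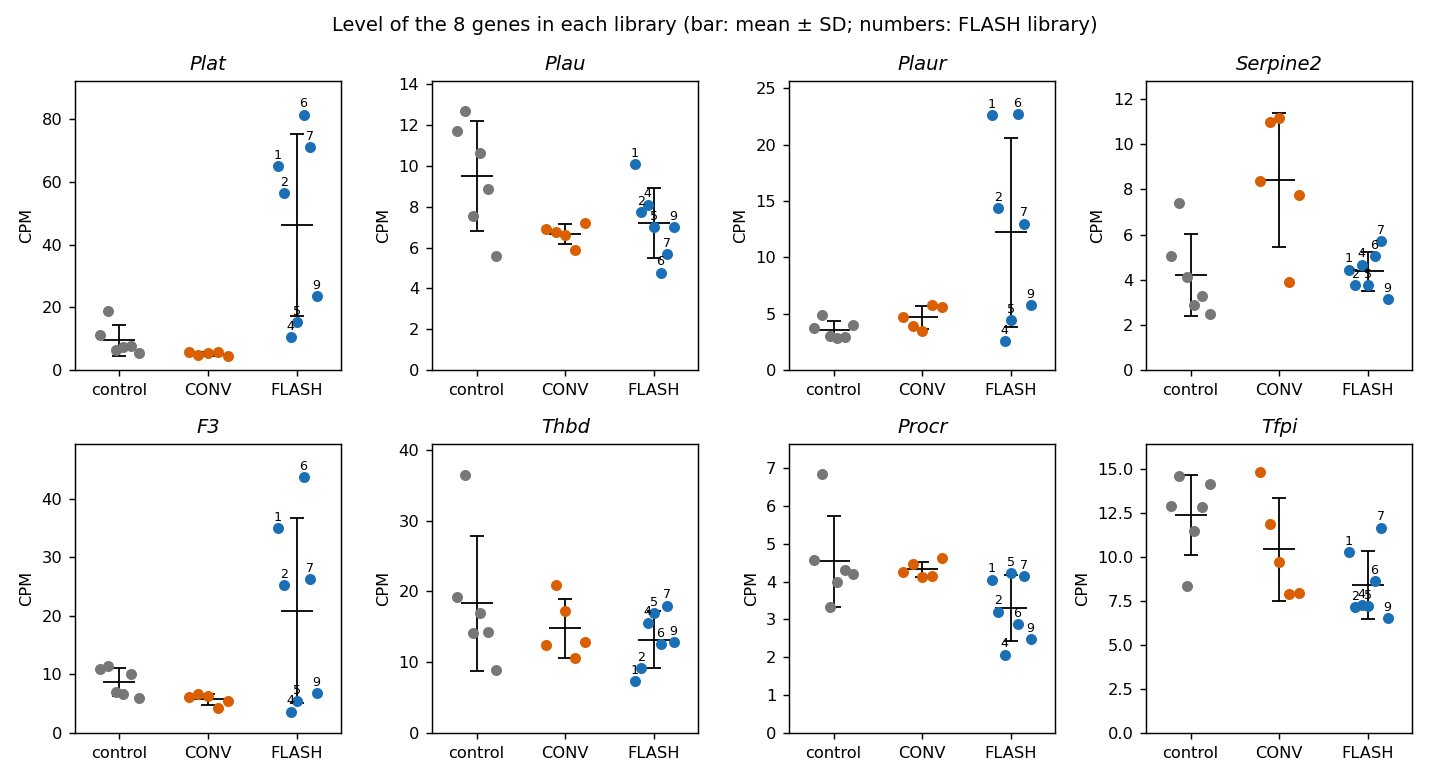
Level of each of the 8 genes in CPM (vertical axis, linear, from 0) in the 18 libraries, with the group mean and SD as a bar and FLASH libraries numbered. Plat, F3 and Plaur show the widest FLASH groups, with libraries 1, 2, 6 and 7 on top in each. Serpine2 is highest in CONV.

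Plat (chromosome 8, 22757727 to 22782844, plus strand, mm10) was low and even in CONV and high but very uneven in FLASH. The control libraries 1 to 6 held 11.3, 18.7, 6.58, 7.41, 7.77 and 5.58 CPM. The CONV libraries held 5.87, 4.71, 5.44, 5.87 and 4.47 CPM. The FLASH libraries held 65.1, 56.5, 10.7, 15.4, 81.5, 71.0 and 23.7 CPM, in the order of their numbers. All 7 FLASH libraries lay above all CONV libraries, and 5 of 7 lay above all controls. The exceptions were FLASH 4 and FLASH 5, which lay within the control range. Means were 46.3 ± 29.0 CPM (SD, n = 7) in FLASH, 5.27 ± 0.65 CPM (n = 5) in CONV and 9.56 ± 4.89 CPM (n = 6) in control. The fitted difference was 3.14 ± 0.48 (SE) on the log2 scale against CONV and 2.27 ± 0.43 against control. The spread of log2 CPM within FLASH (SD 1.18) was wider than within control (0.63) or CONV (0.18).

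In CONV against control, the fitted difference of Plat was -0.86 ± 0.45 (SE) on the log2 scale and did not pass the test across all genes (edgeR adjusted p = 0.164). A 2-sided exact permutation of log2 CPM between the libraries of these 2 groups gave p = 0.013 for a difference of -0.73. That p covers this gene alone and is not adjusted for the other genes tested. Both groups are those that FLASH was set against when Plat was chosen, so these values are not independent of the choice. CONV libraries 3, 5 and 7 lay below all controls, and the other 2 overlapped with control 6. Without control 2, the highest control, the fitted difference was -0.56. The summed level of the 20 blood endothelium markers, all of which passed the filter and none of which was at 0, was 233 to 1146 CPM in control and 286 to 353 CPM in CONV. Without Cd36, which was higher in CONV (0.71 ± 0.24, adjusted p = 0.0425), the sums were 137 to 1084 CPM in control and 170 to 271 CPM in CONV. Of the 20 markers, 18 had a difference below 0 and 2 above 0 in CONV against control (median -0.86). Among them 3 passed as lower and 1 as higher, where 12% and 10.2% of all genes did. Control 2 held the 1146 CPM and the highest Plat of its group, and the part of endothelium in the Plat values was not tested.

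Urokinase did not follow its sister activator. Plau (chromosome 14, 20836660 to 20843385, plus strand) held 11.7, 12.7, 7.53, 10.6, 8.87 and 5.58 CPM in control. It held 6.91, 6.77, 6.63, 5.87 and 7.20 CPM in CONV and 10.1, 7.73, 8.10, 7.01, 4.78, 5.68 and 7.01 CPM in FLASH. The 3 groups overlapped, with the highest values in control. The difference between FLASH and CONV was 0.11 ± 0.21 (adjusted p = 0.753), with an approximate 95% interval of -0.29 to 0.51. Against control, Plau was at -0.51 ± 0.21 in CONV (adjusted p = 0.0871) and at -0.40 ± 0.19 in FLASH (adjusted p = 0.11). Without control 6, the lowest control, both passed, at -0.63 with an adjusted p of 0.0174 in CONV and at -0.52 with an adjusted p of 0.0248 in FLASH.

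The urokinase receptor was high in the same FLASH libraries as Plat. Plaur (chromosome 7, 24462484 to 24475968, plus strand) held 3.75, 4.92, 3.03, 2.83, 2.92 and 4.01 CPM in control and 4.71, 3.91, 3.46, 5.82 and 5.60 CPM in CONV. In FLASH it held 22.6, 14.4, 2.56, 4.41, 22.7, 13 and 5.79 CPM. FLASH 1, 2, 6 and 7 lay above every control and CONV library, while FLASH 4 was the lowest of all 18. Plaur was higher in FLASH than in control by 1.77 ± 0.41 (adjusted p = 0.00232) and than in CONV by 1.38 ± 0.43 (adjusted p = 0.03). Between CONV and control it was at 0.39 ± 0.43 (adjusted p = 0.506). The call against control held on leaving out each of the 18 libraries in turn, whereas that against CONV was lost on leaving out any of 7 of them (CONV 2, 3, 5 or 7, or FLASH 1, 2 or 6), with adjusted p of up to 0.0664, and in 12 of 30 alternative settings in all, libraries left out included.

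Serpine2, which makes a serpin that blocks thrombin, urokinase and tissue plasminogen activator, was the only one of the 8 genes whose difference between CONV and control passed. Of all 16257 genes tested, 22.2% passed in that comparison, 10.2% as higher and 12% as lower in CONV. Serpine2 (chromosome 1, 79794197 to 79861180, minus strand) held 5.03, 7.41, 4.13, 2.91, 3.30 and 2.48 CPM in control. It held 8.38, 10.99, 11.2, 3.88 and 7.73 CPM in CONV, and 4.46, 3.76, 4.67, 3.78, 5.05, 5.72 and 3.16 CPM in FLASH. Of the CONV libraries, 4 of 5 lay above all controls, and CONV 6 lay among them. The rise in CONV over control was 1.001 ± 0.286 (adjusted p = 0.0196). It was kept on leaving out each library in turn, but it was lost in 3 of the 30 settings, among them library totals in place of TMM factors (0.80, adjusted p = 0.081). FLASH lay below CONV by 0.95 ± 0.28 (-0.95 as fitted; adjusted p = 0.0218) and at 0.05 ± 0.27 against control (adjusted p = 0.893). The difference between FLASH and CONV did not pass without CONV 3 (adjusted p = 0.0607) or without CONV 5 (adjusted p = 0.0579).

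Tissue factor, the starter of clotting, shared the FLASH pattern of Plat and Plaur. F3 (chromosome 3, 121723537 to 121735048, plus strand) held 10.9, 11.4, 7.02, 6.59, 10.1 and 5.98 CPM in control and 6.13, 6.73, 6.29, 4.24 and 5.39 CPM in CONV. In FLASH it held 35.0, 25.3, 3.66, 5.49, 43.8, 26.3 and 6.80 CPM. FLASH 1, 2, 6 and 7 again lay above every control and CONV library, FLASH 5 and 9 lay within the range of the other groups, and FLASH 4 was the lowest of all 18. F3 was higher in FLASH than in CONV by 1.86 ± 0.50 (adjusted p = 0.0146) and than in control by 1.27 ± 0.45 (adjusted p = 0.0345), and stood at -0.59 ± 0.49 in CONV against control (adjusted p = 0.377). The call against CONV held on leaving out each library in turn but was lost in 4 of the other settings, among them limma-voom (1.38, adjusted p = 0.089). The call against control was lost on leaving out any of 7 libraries (control 3, 4 or 6, or FLASH 1, 2, 6 or 7), and without FLASH 6 the difference was 0.98 (adjusted p = 0.0921).

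None of the 3 brakes on clotting was higher in FLASH by the test. Thbd (chromosome 2, 148404466 to 148408188, minus strand) ranged from 8.94 to 36.4 CPM in control with a median of 15.6, and control 2 was the highest. It held 12.4, 20.9, 17.2, 10.6 and 12.8 CPM in CONV and 7.26, 9.14, 15.6, 16.97, 12.5, 17.97 and 12.8 CPM in FLASH. FLASH 1 and 2, which were high for Plat, were the lowest FLASH libraries for Thbd. No Thbd difference passed in the main fit (edgeR, all libraries, TMM factors). For FLASH against CONV it was -0.17 ± 0.29 (adjusted p = 0.735, approximate 95% interval -0.74 to 0.41). With library totals in place of TMM factors, Thbd passed as lower in FLASH than in control (-0.86, adjusted p = 0.0309).

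Procr (chromosome 2, 155751117 to 155755471, plus strand) held 4.57, 6.84, 3.33, 3.99, 4.31 and 4.196 CPM in control and 4.13 to 4.61 CPM in CONV. Its FLASH libraries held 4.05, 3.20, 2.07, 4.22, 2.88, 4.15 and 2.47 CPM, and 5 of 7 lay below all CONV libraries. Procr stood at -0.39 ± 0.21 in FLASH against CONV (adjusted p = 0.192) and at -0.46 ± 0.20 against control (adjusted p = 0.0724), neither of which passed. Without control 3 or without FLASH 5 the second passed (-0.54, adjusted p = 0.0477, and -0.53, adjusted p = 0.0498). It also passed with library totals (-0.85, adjusted p = 0.00357) and with the length and GC offset (-0.68, adjusted p = 0.0232).

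Tfpi (chromosome 2, 84432855 to 84476775, minus strand) was the only one of the 3 brakes that passed in a comparison of the main fit. It held 12.9, 14.6, 8.33, 11.5, 12.9 and 14.2 CPM in control, 14.8, 11.9, 9.75, 7.90 and 7.95 CPM in CONV, and 10.3, 7.17, 7.27, 7.21, 8.65, 11.7 and 6.52 CPM in FLASH. FLASH lay below control by 0.56 ± 0.19 (-0.56 as fitted; adjusted p = 0.0245), with 4 of 7 libraries below all controls. This call was lost on leaving out control 1, 2 or 5 or FLASH 4 or 9, with adjusted p of up to 0.0774. Against CONV, Tfpi was at -0.31 ± 0.20 (adjusted p = 0.276).

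**Figure D2:**
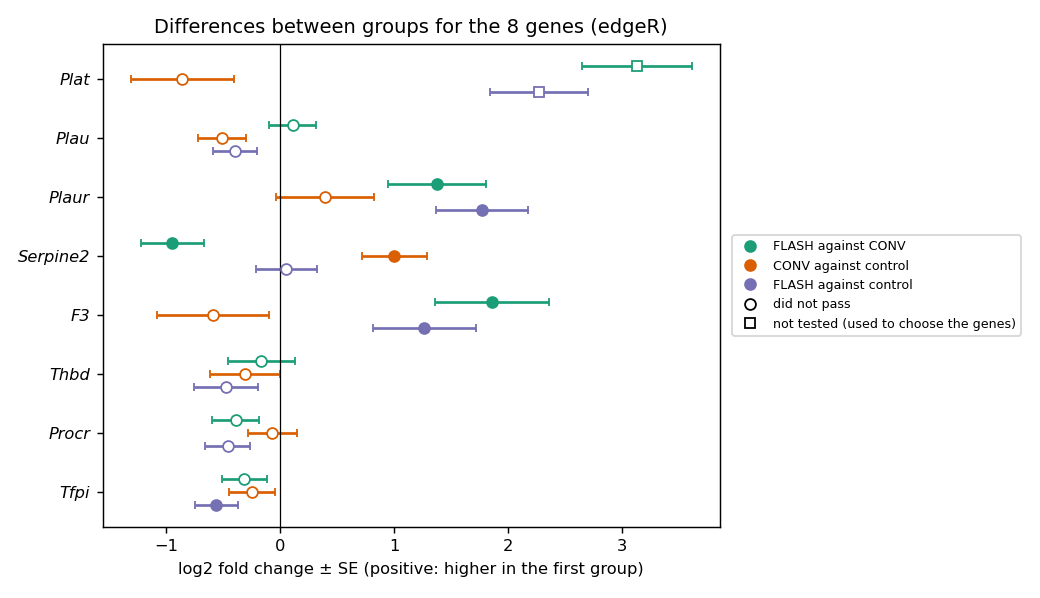
Fitted log2 difference with its standard error (horizontal axis) for the 8 genes (vertical axis) in the 3 comparisons, where filled circles passed at an adjusted p under 0.05 and squares were not tested. Plaur and F3 lie right of 0 in both comparisons with FLASH, Serpine2 is right of 0 for CONV against control, and Tfpi is left of 0 for FLASH against control.

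In all, 3 of the 7 genes other than Plat passed between FLASH and CONV (2 higher and 1 lower in FLASH), where 19.8% of the 16257 genes passed, 9.88% as higher and 9.91% as lower. Between FLASH and control 3 of 7 passed (2 higher and 1 lower), where 37.7% of all genes passed, 16.7% as higher and 21% as lower. None of these genes had groups without overlap in any comparison. Of all genes, 8.53% had none between FLASH and CONV, 10.4% between CONV and control and 13.8% between FLASH and control. Since FLASH lies behind the choice of the list, these counts are given with no reading. Between CONV and control 1 of 8 passed, where 22.2% of all genes passed. The median difference over the genes was -0.17 for FLASH against CONV, -0.28 for CONV against control and -0.40 for FLASH against control. Over all genes tested it was -0.02, -0.04 and -0.07. The comparisons share libraries, so their values stand side by side and are not set against each other.

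Corrected for transcript length (CPM per kilobase of the longest transcript), the order of the genes changed between groups. In control, mean levels ran from 4.92 ± 2.55 CPM per kilobase (SD) for Thbd through F3, Plau, Tfpi, Procr, Plat and Plaur to 1.24 ± 0.53 for Serpine2. Neighbours in that order differed by less than the larger of their SDs, except Plaur and Serpine2. In CONV, Thbd led at 3.97 ± 1.13 and Plat was last at 1.30 ± 0.16, below its neighbour Plaur by more than either SD. In FLASH, Plat (11.5 ± 7.17), F3 (11.2 ± 8.45) and Plaur (6.08 ± 4.17) came first and Serpine2 last (1.29 ± 0.26). Their FLASH order among themselves was not separated by these SDs.

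Ratios within a library set activators beside inhibitors on the same length-corrected scale. The ratio of Plat to Plau was 0.40 to 0.85 in control, 0.36 to 0.58 in CONV and 0.76 to 9.88 in FLASH (median 3.75). The ratio of F3 to its inhibitor Tfpi was 0.90 to 1.79 in control, 0.88 to 1.44 in CONV and 1.07 to 10.7 in FLASH (median 4.77), where FLASH 4 was lowest and FLASH 6 highest. The ratio of Plau to Serpine2 had a median of 3.32 in control, 1.20 in CONV and 2.69 in FLASH. Of the 5 CONV libraries, all had a ratio of 2.19 or less, and all controls had 2.48 or more. How often ratios of other gene pairs separate these groups was not tested. The ratio of Plaur to Plau overlapped between them, at 0.31 to 0.84 in control and 0.61 to 1.16 in CONV.

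**Figure D3:**
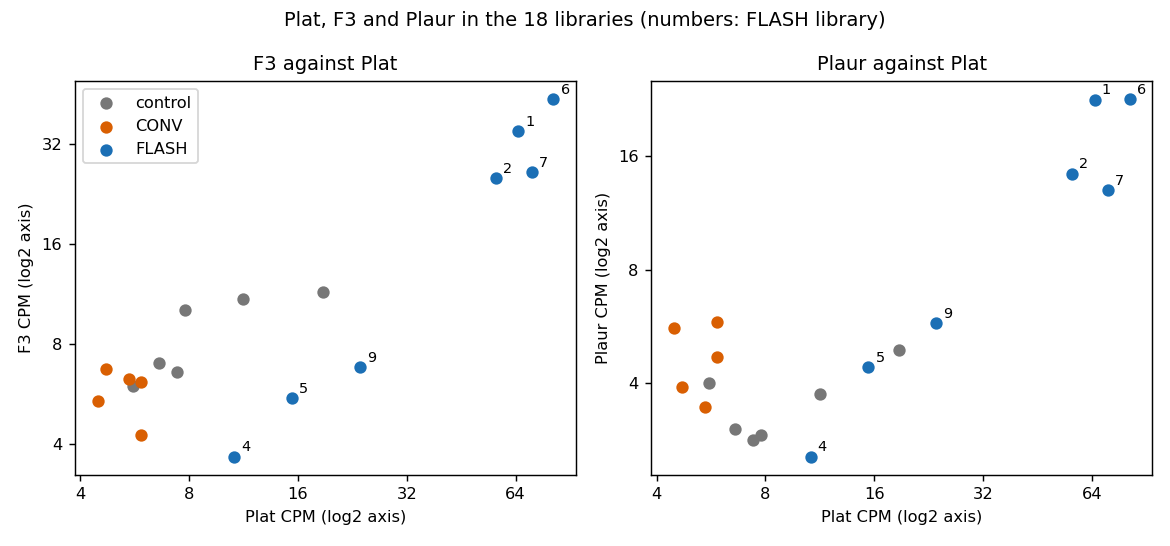
F3 (left) and Plaur (right) against Plat in the 18 libraries, in CPM on log2 axes, coloured by group with FLASH libraries numbered. FLASH 1, 2, 6 and 7 stand apart at the upper right, and FLASH 4, 5 and 9 lie near the other groups in F3 and Plaur.

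Plat, F3 and Plaur varied together between the FLASH libraries. They did not in CONV, where CONV 6 held the lowest F3 (4.24 CPM) but the highest Plat (5.87 CPM) and Plaur (5.82 CPM). With each group's mean removed, Pearson's r over the 18 libraries was 0.93 for Plat with F3, 0.89 for Plat with Plaur and 0.90 for F3 with Plaur. The points share libraries, depth and composition, and the 7 FLASH libraries carry most of the spread, so these are descriptions. For Plat with the other 5 genes, the same r lay between 0.05 (Thbd) and 0.55 (Procr). In all 3 genes, the order of the lower FLASH libraries was 9, 5 and 4, from higher to lower.

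Markers of several cell types also differed between these FLASH libraries. The 10 markers of enteric neurons and glia, none of them at 0, summed to 47.5, 38.8, 30.9 and 71.8 CPM in FLASH 1, 2, 6 and 7, and to 20.9, 20.01 and 23.8 CPM in FLASH 4, 5 and 9. Controls held 21.9 to 48.4 CPM and CONV 16.8 to 38.5 CPM. No marker of this list passed between FLASH and CONV, where 19.8% of all genes did. The 8 neutrophil markers, of which Cxcr2 and Ngp did not pass the filter, summed to 64.1, 54.1, 22.03 and 55.8 CPM in FLASH 1, 2, 6 and 7 and to 20.1, 17.9 and 11.01 CPM in FLASH 4, 5 and 9. Ly6g carried most of this, at 42.7, 35.8, 12.2 and 32.7 CPM against 7.49, 0.64 and 0.57 CPM, and without it the sums were 21.4, 18.3, 9.83 and 23.1 CPM against 12.6, 17.3 and 10.4 CPM, which overlap. Mmp9 ran the other way, at 4.17 to 8.29 CPM in FLASH against 6.20 to 35.4 CPM in control. The full list summed to 8.21 to 41.6 CPM in control and 13.2 to 19.9 CPM in CONV. No single one of the 6 tested passed between FLASH and CONV, where 19.8% of all genes did. Against control, 4 passed as higher and 1 as lower in FLASH, where 16.7% and 21% of all genes did. Platelet markers, of which Treml1 was at 0 in every library and only 3 of 9 passed the filter, summed to 24.3, 24.3, 40.2 and 33.7 CPM against 22.6, 21.0 and 18.1 CPM. In control they summed to 14.3 to 29.9 CPM and in CONV to 10.6 to 25.2 CPM. Gp1bb carried most of these sums, at 14.1 to 36.4 CPM in FLASH, 12.0 to 28.3 CPM in control and 7.04 to 21.3 CPM in CONV. The next gene, Pf4, had a mean of 3.28 CPM in FLASH. The 10 smooth muscle markers, none of them at 0, summed to 1111, 681, 1159 and 1389 CPM in FLASH 1, 2, 6 and 7 and to 448, 665 and 585 CPM in FLASH 4, 5 and 9. They summed to 1376 to 3938 CPM in control and 194 to 1334 CPM in CONV. All 10 passed as lower in FLASH than in control, where 21% of all genes did. None passed between FLASH and CONV, where 19.8% of all genes did. The part of these cells in the levels of Plat, F3 and Plaur was not tested.

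The endothelial markers did not follow this order. They summed to 473, 521, 439 and 748 CPM in FLASH 1, 2, 6 and 7 and to 516, 680 and 626 CPM in FLASH 4, 5 and 9, so the library with the most Plat (FLASH 6) had the lowest endothelial sum of its group. Every FLASH library lay above the CONV range of 286 to 353 CPM, which rested on Cd36, a fatty acid carrier that other cells also express. Cd36 was at 209 to 329 CPM in FLASH and 68.9 to 152 CPM in CONV. Without it the sums were 230 to 539 CPM in FLASH, again lowest in FLASH 6, and 170 to 271 CPM in CONV, and the groups overlapped. The sums without Cd36 and without Ly6g were added after seeing the data. Of the 20 markers, 17 had a difference above 0 and 3 below 0 in FLASH against CONV (median 0.62, beside -0.02 over all genes). Among them Robo4 and Cd36 passed as higher in FLASH than in CONV and none as lower, where 9.88% and 9.91% of all genes did. Pecam1 (0.53 ± 0.37), Cdh5 (1.083 ± 0.526), Kdr (0.58 ± 0.51) and Plvap (0.69 ± 0.36) did not pass. Over the 18 libraries, r with Plat was 0.33 for Pecam1, 0.46 for Cdh5, 0.27 for Kdr and 0.44 for Plvap. Library totals were 30196611, 26674201, 28329448 and 29727430 counts in FLASH 1, 2, 6 and 7 and 24404032, 23079695 and 28166042 counts in FLASH 4, 5 and 9.

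**Figure D4:**
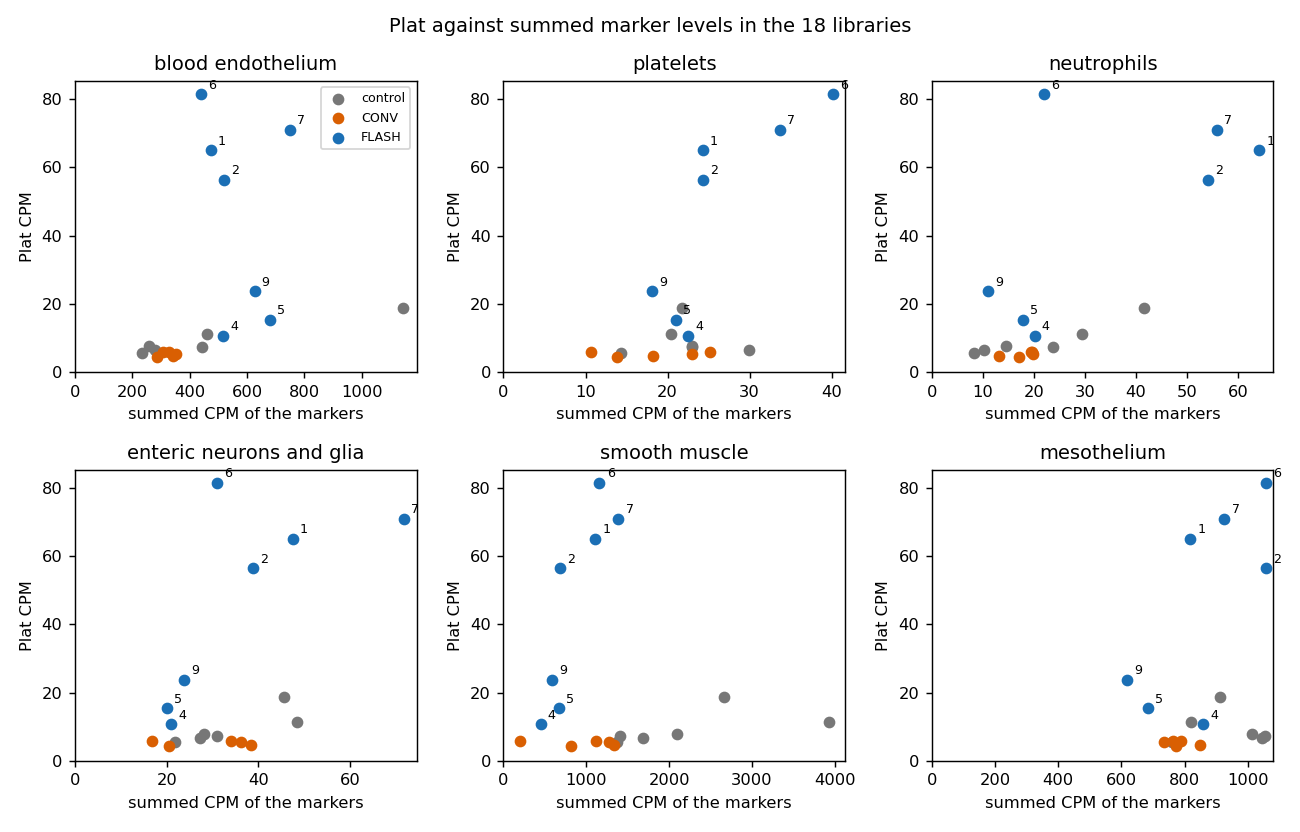
Plat in CPM (vertical axes) against the summed CPM of the markers of 6 cell types (horizontal axes) in the 18 libraries, all linear, with FLASH libraries numbered. FLASH 6, with the most Plat at 81.5 CPM, has the lowest endothelial sum of the FLASH group (439 CPM) and its highest platelet sum (40.2 CPM). Most of the platelet sum is Gp1bb (mean 21.8 CPM in FLASH), and most of the mesothelium sum is Krt19 (mean 851 CPM in FLASH).

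Outside the list, 33 of 14450 ranked genes had r above 0.9 with Plat over the 18 libraries. The closest were Klf11 (r = 0.95), a Kruppel-like transcription factor, Bmper (0.94), which binds bone morphogenetic proteins, Vamp2 (0.94), a vesicle fusion protein, Ildr1 (0.94), a protein of tricellular junctions, and Armcx5 (0.93). With group means removed, their r was 0.82, 0.80, 0.81, 0.91 and 0.82. Ranked in that second way, the 5 highest were F3, Ildr1, Pwp1, Plaur and Syngr2, in that order. These correlations are descriptions over libraries that share depth and composition.

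Because F3 and Plaur moved together in FLASH, the bases before their start sites are shown, with Procr and Serpine2 beside them as genes with other patterns. RefSeq windows (GRCm38.p6) were at hand for 5 of the 8 genes. Each line gives the 250 bases before the start, 5′ to 3′ on the strand of the gene, and capitals mark matches, on either strand, to the short motifs named after the lines. The stretches are chr3:121723287-121723536 (plus) for F3, chr7:24462233-24462482 (plus) for Plaur, chr2:155750967-155751216 (plus) for Procr and chr1:79858666-79858915 (minus) for Serpine2. The Serpine2 stretch lies inside the gene positions given above, before a RefSeq start within them, so the bases before the outermost start are not shown.
F3: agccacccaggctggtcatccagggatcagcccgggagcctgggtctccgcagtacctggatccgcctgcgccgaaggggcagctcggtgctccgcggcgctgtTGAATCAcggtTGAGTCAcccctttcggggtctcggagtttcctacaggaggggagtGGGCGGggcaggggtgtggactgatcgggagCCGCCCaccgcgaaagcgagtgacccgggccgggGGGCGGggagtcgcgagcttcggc
Plaur: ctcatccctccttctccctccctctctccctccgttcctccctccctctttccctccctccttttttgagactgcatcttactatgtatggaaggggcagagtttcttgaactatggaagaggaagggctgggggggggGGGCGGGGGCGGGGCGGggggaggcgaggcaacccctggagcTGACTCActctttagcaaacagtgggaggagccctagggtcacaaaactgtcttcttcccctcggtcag
Procr: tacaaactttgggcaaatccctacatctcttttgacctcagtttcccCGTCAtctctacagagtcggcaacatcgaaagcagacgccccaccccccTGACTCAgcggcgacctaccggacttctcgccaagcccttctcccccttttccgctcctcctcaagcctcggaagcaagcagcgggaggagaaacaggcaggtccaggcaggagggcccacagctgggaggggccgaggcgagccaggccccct
Serpine2: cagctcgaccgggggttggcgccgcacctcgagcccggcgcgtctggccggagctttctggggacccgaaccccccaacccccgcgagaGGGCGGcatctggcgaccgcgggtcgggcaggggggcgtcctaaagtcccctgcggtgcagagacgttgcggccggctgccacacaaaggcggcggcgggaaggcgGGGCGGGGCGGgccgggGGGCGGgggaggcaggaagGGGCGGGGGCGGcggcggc

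The motifs searched in 300 bases (250 before and 50 after the start) were the AP-1 site TGANTCA, the GC box GGGCGG, the TATA box TATAAA, the E-box CACGTG, the glucocorticoid half-site AGAACA and the CRE half-site TGACG. Among 32851 windows of that length, 7.81% held the AP-1 letters, 35.7% the GC box, 13.6% the TATA box, 7.15% the E-box, 19.0% the glucocorticoid half-site and 20.8% the CRE half-site. F3 held AP-1 letters at 146 and 135 bases before the start, and Plaur held them at 69 bases before. Procr, whose differences did not pass in the main fit, held them at 154 bases before the start and a CRE half-site at 203 bases before. That window of Serpine2 and both windows of Tfpi held no AP-1 letters. GC boxes were found in the windows of F3 (3 matches), Plaur (3 overlapping or adjoining matches), Serpine2 (6 matches) and in each window of Tfpi. A match is a run of letters, not a bound site.

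Other genes of plasminogen activation were mostly higher in FLASH than in control. Of 15 listed genes 11 could be tested, and 7 rose and 1 fell in that comparison (median 0.97), beside 16.7% higher and 21% lower among all genes. Eno1 and Anxa2, whose proteins bind plasminogen or its activator at cell surfaces, rose by 1.05 ± 0.14 (adjusted p = 2.05e-05) and 0.95 ± 0.19 (adjusted p = 0.000831). Tnfrsf12a, the receptor of the cytokine TWEAK, rose by 2.12 ± 0.37 (adjusted p = 0.000254), from 2.49 to 6.90 CPM in control to 6.47 to 43.1 CPM in FLASH. Serpinf2, the plasmin inhibitor, rose by 1.02 ± 0.26 (adjusted p = 0.00531). The gene that fell was Plgrkt (-0.73 ± 0.24, adjusted p = 0.0226).

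Between FLASH and CONV 2 of 11 genes of that list passed, both higher in FLASH (median 0.26), near the 19.8% of all genes. They were Anxa2 (0.77 ± 0.20, adjusted p = 0.0133) and Thbs1 (1.75 ± 0.49, adjusted p = 0.0176), a matrix protein of platelets and other cells that ranged from 6.37 to 22.5 CPM in CONV and from 24.8 to 119 CPM in FLASH. Without CONV 7, Thbs1 was at 1.64 (adjusted p = 0.0509). In CONV against control, Eno1 alone of the 11 passed, where 22.2% of all genes did (0.85 ± 0.15, adjusted p = 0.000866; list median 0.48). Plg, the gene of plasminogen, which the liver makes, had at most 15 estimated counts in a library and did not pass the filter.

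The clotting factor list was mostly silent, as 10 of its 16 genes did not pass the filter. Of the 6 tested, 1 fell and none rose between FLASH and CONV, which was Vkorc1 (-1.15 ± 0.22, adjusted p = 0.00207), the enzyme that recycles vitamin K. Of all genes, 9.91% were lower there. Vkorc1 fell against control as well (-0.72 ± 0.21, adjusted p = 0.012), together with the vitamin K-dependent carboxylase Ggcx (-0.93 ± 0.25, adjusted p = 0.00651). Between CONV and control, Vwf, the endothelial carrier of factor VIII, fell (-2.30 ± 0.69, adjusted p = 0.0239). Its controls ranged from 1.82 to 67.4 CPM, and the highest was control 2, without which the difference was -1.44 (adjusted p = 0.0902). List medians were -0.02 for FLASH against CONV, -0.36 for CONV against control and -0.61 for FLASH against control.

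Among the other anticoagulant genes, 11 of 14 could be tested. Between FLASH and CONV none rose and 2 fell (median 0.15), where 9.88% of all genes were higher and 9.91% lower. These were Tfpi2 (-1.09 ± 0.29, adjusted p = 0.0129) and Proz (-1.07 ± 0.30, adjusted p = 0.017), which encodes protein Z. With the length and GC offset Tfpi2 was at -0.68 (adjusted p = 0.15), and without CONV 7 Proz was at -0.92 (adjusted p = 0.0607). Between FLASH and control, Hs3st1 (0.60 ± 0.22, adjusted p = 0.0346) and Proc (0.58 ± 0.22, adjusted p = 0.0461) rose, and Proz (-1.24 ± 0.29, adjusted p = 0.00238) and Anxa5 (-0.80 ± 0.18, adjusted p = 0.00161) fell (median -0.25). Of all genes, 16.7% were higher and 21% lower in that comparison. Hs3st1 encodes a heparan sulfate sulfotransferase, Proc protein C and Anxa5 a lipid-binding protein that shields membranes. Of the 30 alternative settings, Proc lost its call in 19 and Hs3st1 in 15. Between CONV and control Anxa5 alone passed (-0.61 ± 0.19, adjusted p = 0.031, list median -0.17), where 22.2% of all genes did. This call was lost in 8 of the 30 settings, among them the one without control 2 (-0.41, adjusted p = 0.0702).

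Of the thrombin receptors and their G proteins, 6 of 7 could be tested. Between FLASH and CONV 2 passed as higher and none as lower, where 9.88% and 9.91% of all genes did. Against control, 2 passed as higher and 1 as lower in FLASH, where 16.7% and 21% of all genes did. Between CONV and control 1 passed as higher and 1 as lower, where 10.2% and 12% of all genes did. F2rl1, the receptor PAR2 that trypsin-like proteases and the tissue factor complex cut, was higher in FLASH. It ranged from 78.2 to 210 CPM in FLASH, from 44.2 to 64.1 CPM in CONV and from 31.0 to 62.2 CPM in control, with no overlap between FLASH and either group. Of all genes, 8.53% had no overlap between FLASH and CONV and 13.8% between FLASH and control. The rise was 1.36 ± 0.23 against CONV (adjusted p = 0.000844) and 1.45 ± 0.21 against control (adjusted p = 4.32e-05). Gna13, a G protein subunit, rose against both as well (0.71 ± 0.15, adjusted p = 0.00386, and 1.16 ± 0.14, adjusted p = 9.04e-06). With the length and GC offset Gna13 was at 0.49 against CONV (adjusted p = 0.0738). F2r, the thrombin receptor PAR1, fell in CONV against control (-1.13 ± 0.25, adjusted p = 0.00499) and in FLASH against control (-0.59 ± 0.23, adjusted p = 0.0461). Its second call was lost in 20 of the 30 settings. Gna13 also rose in CONV over control (0.46 ± 0.15, adjusted p = 0.0393), a call lost in 12 of the 30. List medians were 0.43 for FLASH against CONV, -0.12 for CONV against control and 0.09 for FLASH against control.

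**Figure D5:**
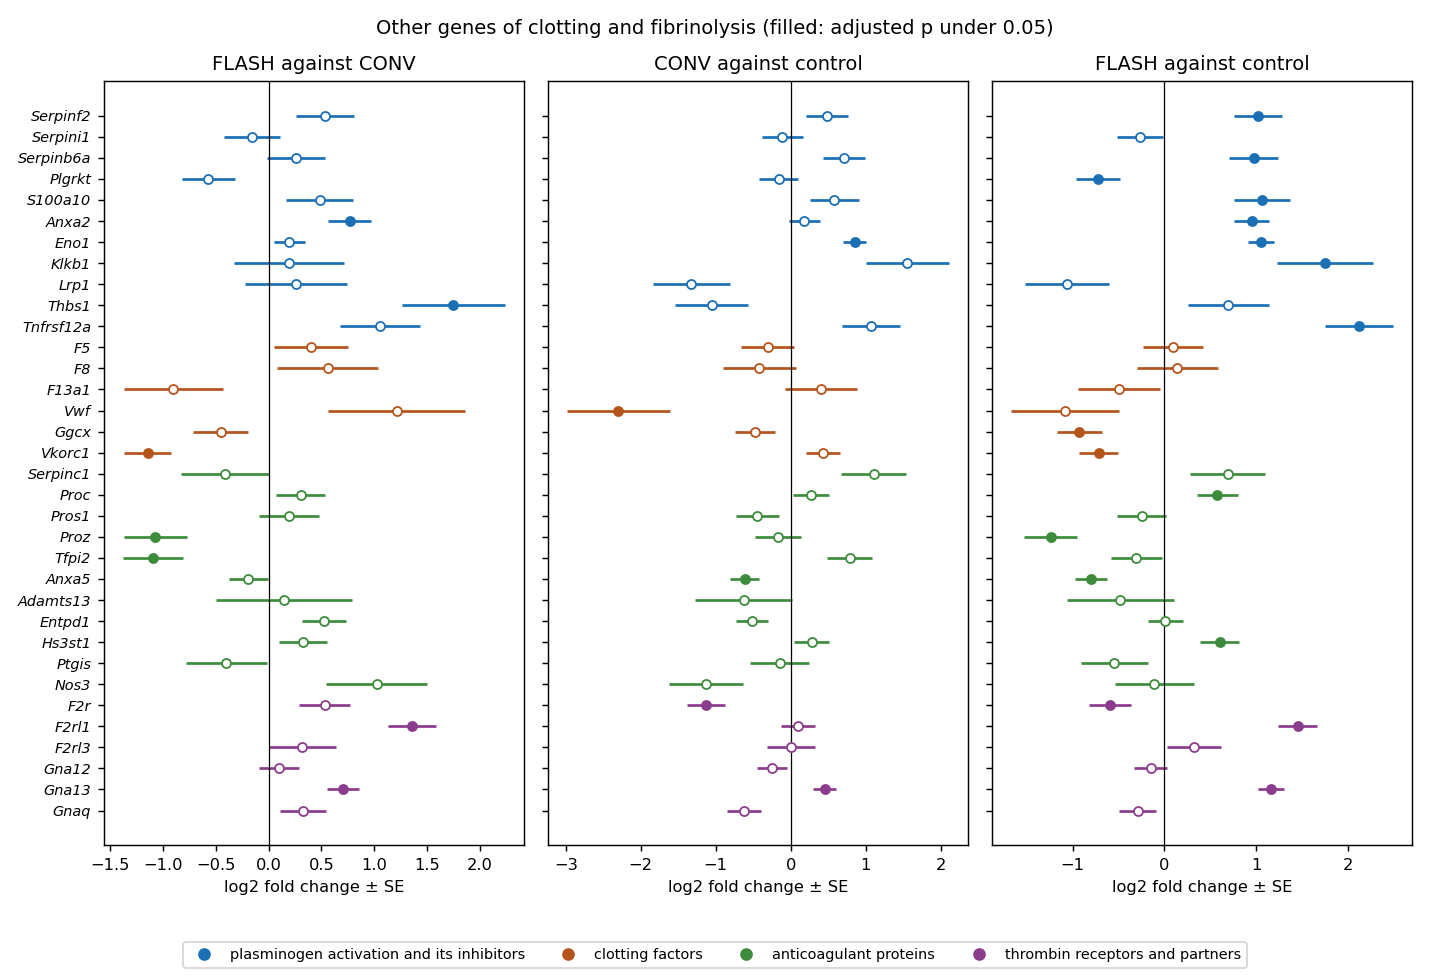
Fitted log2 difference with its standard error (horizontal axes) for the 34 tested genes of the 4 related lists (vertical axis, coloured by list) in the 3 comparisons, where filled points passed at an adjusted p under 0.05. F2rl1 and Gna13 lie right of 0 in both comparisons with FLASH, and Vkorc1 and Proz lie left of 0 in both.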

How the data were processed

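Whole jejunum RNA of 18 libraries was sequenced after stranded mRNA library preparation. Reads were processed with STAR and Salmon on mm10, and edgeR 3.40.2 and limma 3.54.2 were used downstream, per the submitters' processing notes, which give no version of the first tools. The deposited expected counts (estimates that need not be whole, unscaled) covered 54532 genes and were rounded to whole numbers. The second table the authors deposited held log2 values, which equalled log2 CPM with 1 effective size per library. Symbols, positions and lengths came from GENCODE vM21 (mm10), which named 54495 gene IDs.

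All libraries entered 1 edgeR 4.0.16 quasi-likelihood fit (R 4.3.3; filterByExpr, TMM factors, robust dispersion) with Benjamini-Hochberg adjustment over 16257 genes and a threshold of 0.05. Differences are log2 fold changes of the first group named over the second, and each standard error is the size of the difference divided by the root of its F. CPM use TMM-scaled sizes, and log2 CPM a prior count of 2. The steps were tested on simulated data. No duplicate libraries were found.

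Alternatives covered scaling, filters, tool (limma 3.58.1, DESeq2 1.42.0), the replicate block, a length and GC offset, and leaving libraries out. The genes, lists and tests were chosen with earlier results of these data known. Named were all 8 genes, up to 4 passing members of each of 4 related lists by smallest p, 5 genes most like Plat, and Plg, Plgrkt, Vwf, F2r, F2rl1, Pecam1, Cdh5, Kdr and Plvap. One other gene of these lists is not reported here.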

Additional observations from a re-analysis of the deposited data

Results flagged for a closer look

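Of the 24 sets of values (8 genes in 3 groups), 1 had a library far from the others of its group. Procr in control 2 was at 6.838 CPM, the next control was at 4.565 CPM and the lowest at 3.325 CPM, so the gap to the next library took 0.647 of the whole range. Chance alone would mark about 1 in 20 such sets. Control 2 was also the highest control for Plat, Plau, Plaur, Serpine2, F3, Thbd and Tfpi. Without control 2 the Procr difference between CONV and control was 0.08 in place of -0.07, and neither passed.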

How the results depend on the processing

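Of 12 settings other than leaving out a library, these moved a count past 1.5 times. The replicate numbers did not pair libraries: 3 of 13 same-number pairs had correlated deviations (r over 0.1; median r -0.05), and in 4 of 26 checks of a library against another group its own number correlated best. With the replicate block, 1569 genes passed between FLASH and CONV, 0 of the 7 genes other than Plat passed there, 0 of 8 between CONV and control, and 1 of 7 between FLASH and control; the lowest adjusted p in the first were 0.0502 for Plaur and 0.051 for F3, and Serpine2 in CONV against control was at 0.97 (adjusted p = 0.0661; 0.88 and 0.083 with the offset as well). The block also ended the calls of Anxa2 (0.81, adjusted p = 0.0661), Thbs1 (0.0548), Tfpi2 (0.0545) and Gna13 (0.0521) between FLASH and CONV and of Vkorc1 between FLASH and control (-0.71, adjusted p = 0.0869). Between CONV and control, 2 genes passed with the length and GC offset (Plau at -0.79 and Serpine2), 0 with that offset and the block, and 2 without control 6, CONV 6 and FLASH 1 together. In these 3 libraries, log2 CPM relative to each gene's mean had the lowest slopes on log2 transcript length (-0.41, -0.43 and -0.34). CONV 2 was at -0.32, and the highest slope was 0.32 in control 2. Between FLASH and CONV, 1 passed without those 3 libraries, 1 with limma-voom and 1 with limma-trend on the deposited log2 values; F3 was then at 1.61, 1.38 and 1.37 (adjusted p 0.0515, 0.089 and 0.0838). Between FLASH and control, 5 passed with library totals and 1 with a filter of 1 count. The 5 included Plau (-0.80, adjusted p = 0.0046), Thbd (-0.86, adjusted p = 0.0309) and Procr (-0.85, adjusted p = 0.00357), which did not pass in the main fit. Library totals moved the median of all genes by -0.16, -0.21 and -0.37 for FLASH against CONV, CONV against control and FLASH against control, and the share of higher calls to 24.4, 24.2 and 17.4% from 49.9, 46 and 44.3%. The F3 call against control was also lost with library totals, the filter of 1 count, the block, the length and GC offset, the fit of 2 groups, limma-voom and limma-trend. The cause of these changes was not tested.

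Leaving out each library in turn gave 2171 to 3993 genes for FLASH against CONV, 1869 to 6493 for CONV against control (6493 without control 6, 1869 without CONV 6, 2171 without CONV 2, 2277 without control 2, 2359 without control 5) and 5074 to 7164 for FLASH against control. The genes of the list that passed numbered 1 to 3 (1 without CONV 3 or CONV 5), 1 to 2 (2 without control 6) and 2 to 4, and Plat in CONV against control ran from -0.978 to -0.558.

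Signs changed for small differences that passed in none of these fits. Plau in FLASH against CONV was at -0.067 (library totals), -0.103 (replicate block) and -0.03 (without the 3 libraries). Serpine2 in FLASH against control was at -0.34 (library totals) and -0.017 (without the 3 libraries). In CONV against control, library totals gave -0.025 for Anxa2 and -0.122 for F2rl1, the block -0.004 for F2rl1, and the length and GC offset -0.008 for Anxa2, -0.018 for Proc, -0.142 for Hs3st1 and -0.061 for F2rl1. The offset with the block gave -0.045 for Plaur, -0.079 for Anxa2, 0.021 for Proz, -0.273 for Hs3st1 and -0.17 for F2rl1 there, and 0.016 for Anxa5 in FLASH against CONV. Leaving out single libraries moved Procr in CONV against control between -0.147 and 0.075 (above 0 without control 2), Serpine2 in FLASH against control between -0.061 (without control 6) and 0.327, and F2rl1 in CONV against control between -0.015 (without control 6) and 0.166.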
